A study of Mus musculus with 15 samples.

Results

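The cells described here are control microglia from the forebrain of mice 8 months of age, measured by single-cell RNA sequencing. A barcode was kept as a cell when it had at least 500 detected genes and at most 10% of its unique molecular identifiers (UMIs, each marking 1 captured RNA molecule) on mitochondrially encoded genes. Of 6633 control barcodes 6243 were kept (94.1%), out of 15117 cells that pass the same limits in both single-cell libraries of the series. The mice were C57BL/6 and carried floxed Atg7 alleles (ATG7FF) without a Cre recombinase and without 5xFAD transgenes. Tamoxifen, at a dose of 1.5 mg, had been given 6 months before sampling, when the mice were 2 months old, so the controls shared the floxed alleles and the tamoxifen with the Atg7-deleted mice of the series. Cells of 3 forebrains were pooled into 1 library after a Percoll gradient and a sort for high CD11b and low CD45, a gate that keeps microglia and sets aside most blood-derived leukocytes. With 1 pooled library there is no replicate: no test was run, and the intervals given are exact 95% Poisson intervals for levels and Clopper-Pearson intervals for shares, which cover counting error only.

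Microglia are the resident macrophages of the brain parenchyma. They survey the tissue with motile processes, sense nucleotides through purinergic receptors and the neuronal chemokine fractalkine through Cx3cr1, and depend on signalling through the receptor Csf1r to survive. They engulf synapses, debris and protein deposits, which are broken down in lysosomes by cathepsins and glycosidases, and they are the main source of complement C1q in the brain.

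The kept cells held 9122532 UMIs, with a median of 1392 per cell (5th to 95th percentile 917 to 2265, highest 5648) and a median of 856 detected genes (501 to 2440). Mitochondrially encoded genes took a median of 1.19% of a cell's UMIs and at most 9.38%. Just inside the gene limit, 293 cells with 500 to 599 genes had 6000 CPM (counts per 1000000 UMIs) of Cx3cr1 and 58394 of Cst3, and just outside it 90 barcodes with 400 to 499 genes had 6142 and 57244. Of the kept barcodes, 11 also occurred among the kept cells of the Atg7-deleted library. The Poisson interval of a level reached up to 15.6% above it at 20 CPM, 6.71% at 100 CPM and 2.07% at 1000 CPM. Because the 3' method captures a transcript once whatever its length, CPM are compared between genes without a length correction.

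**Figure D1:**
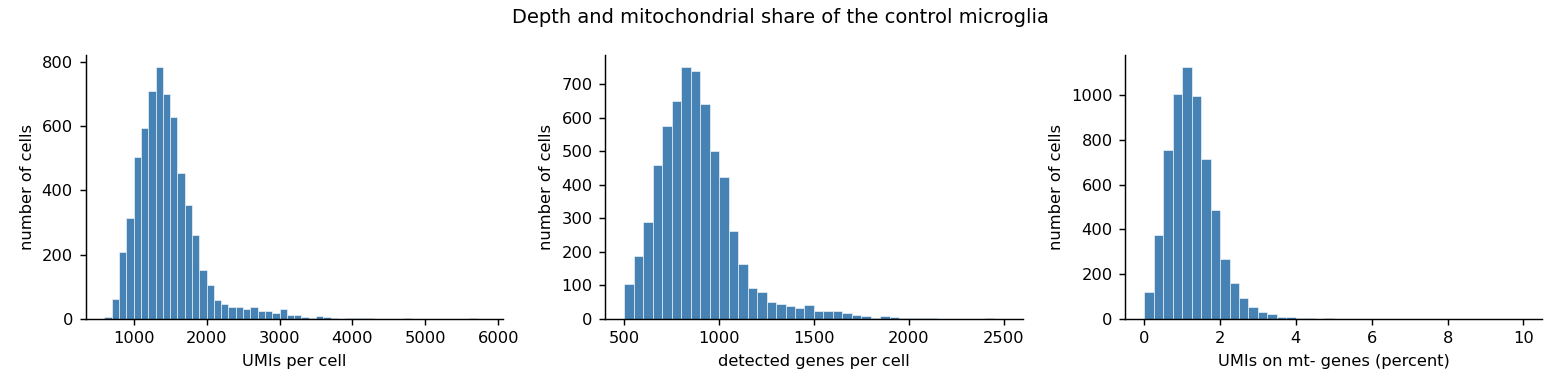
Number of control microglia (vertical axes) by UMIs per cell, by detected genes per cell and by the percentage of UMIs on mitochondrially encoded genes (horizontal axes). The cells form 1 peak in each panel, around medians of 1392 UMIs, 856 genes and 1.19%, with a thin tail of deeper cells up to 5648 UMIs.

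The label was checked against the defining markers of microglia, which nearly all cells carried. A UMI of P2ry12, Tmem119, Cx3cr1 or Csf1r was found in 6234 of 6243 cells (99.9%, 95% interval 99.7 to 99.9%), and all 4 were found in 80.2% (79.2 to 81.2%). Cx3cr1, the fractalkine receptor, was detected in 99.6% of cells, P2ry12, an ADP receptor, in 97.8%, Csf1r in 96.9% and Tmem119, a membrane protein of unsettled function, in 84.2%. After each cell was thinned to 1000 UMIs, which left out 588 shallower cells, the shares were 98.9%, 95.7%, 93.6% and 73.7%. Of 12 microglial markers, at least 3 were detected in 6232 cells (99.8%). For comparison, 9 barcodes had at least 100 UMIs of Ttr, a gene of choroid plexus epithelium, at a median of 2525 UMIs. Among these 9, UMIs of Cx3cr1 were found in 2, of P2ry12 in 3, of Csf1r in 3 and of Tmem119 in 1, and 5 had none of the 4. Cx3cr1 had 686 CPM over the 9 barcodes. Whether these UMIs came from free RNA or from a microglial cell in the same barcode was not tested.

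Most defining markers of other cell types were at or near 0, but a few members of these lists were not. Across 14 lists for other cells, 3 or more markers were found in 1 cell for border macrophages, 1 for oligodendrocytes and 2 for choroid plexus or ependymal cells, and in 0 cells for each other list, which allows a share of up to 0.0591%. The neutrophil genes S100a8 and S100a9, the T cell genes Cd3e and Trac, the monocyte gene Ly6c2, the endothelial gene Cldn5 and all 5 mural cell markers had 0 UMIs, which allows up to 0.404 CPM each. Most UMIs of these lists lay on single genes: Stab1 held 176 of the 183 CPM of the border macrophage list, Slc1a3 held 161 of the 163 CPM of the astrocyte list, and Ighm and Cd79b held all 327 CPM of the B cell list. Pecam1 held 55.4 of the 63.7 CPM of the endothelial list. Ttr, described below, held nearly all of the 481 CPM of the choroid plexus or ependymal list. In the same cells the border macrophage gene Mrc1 stood at 4.71 CPM and Pf4 at 0.658, the astrocyte genes Gfap and Gja1 at 0, and the B cell genes Cd79a and Ms4a1 at 0. Leaving out the cells with 3 or more markers of another type left 6239 cells, in which the same 46 of 46 genes varied past the limit used below. That filter removed only 2 choroid plexus or ependymal cells, whereas 14 cells held at least 10 UMIs of Ttr. The unchanged count therefore says little about such cells.

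Ranks are given outside mitochondrially encoded and ribosomal protein genes. The most abundant transcript was Cst3, the secreted cysteine protease inhibitor cystatin C, at 59947 CPM (interval 59788 to 60106). The 3 listed cystatins together took 6.00% of all UMIs. In cells thinned to 1000 UMIs, Cst3 had a median of 58 UMIs (5th to 95th percentile 30 to 98, highest 147). The nuclear noncoding RNA Malat1 followed at 41919 CPM, with a median of 41 UMIs per thinned cell (24 to 64). Gm42418, at 17215 CPM, is an annotated RNA that overlaps a copy of the ribosomal RNA repeat, so its UMIs cannot be told apart from ribosomal RNA. Next came Tmsb4x, which encodes the actin-binding peptide thymosin beta 4, at 10474 CPM.

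The 3 chains of complement C1q, the protein that starts the classical complement cascade and tags synapses for removal, stood side by side at 8961 CPM for C1qa, 8075 for C1qb and 6578 for C1qc. They lie next to one another in the genome, C1qb at chr4:136880129-136886187, C1qc at chr4:136889804-136893065 and C1qa at chr4:136895917-136898803, all on the minus strand of GRCm38. Of the 8 complement genes listed 4 reached 20 CPM, beside 40.0% of all genes with a UMI. Transcripts for other steps of the cascade were scarce, with C3 at 0.110 CPM, C4b at 1.10 and Cfp at 0.987.

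Genes of the lysosome and of surface receptors made up much of the top 30. The lysosomal proteases Ctsd, Ctss and Lgmn had 6688, 6350 and 2661. Cx3cr1 ranked 12th at 5336 CPM, ahead of P2ry12 at 3577 and Csf1r at 2893. The signalling adaptors and receptors Tyrobp, Trem2 and Fcer1g had 2817, 2511 and 2381 CPM. Further members of the top 30 were Actb (6301), Itm2b (4832), Sparc (3325), Laptm5 (2693) and Selplg (2541). The immediate early genes Jun, at 4763 CPM, and Btg2, at 2342, also stood among them. Over all genes, the 10 most abundant held 17.5% of all UMIs, the top 100 held 33.9% and the top 1000 held 64.8%. At or above 1000 CPM were 103 genes, 21 of them ribosomal protein genes and 7 mitochondrially encoded.

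**Figure D2:**
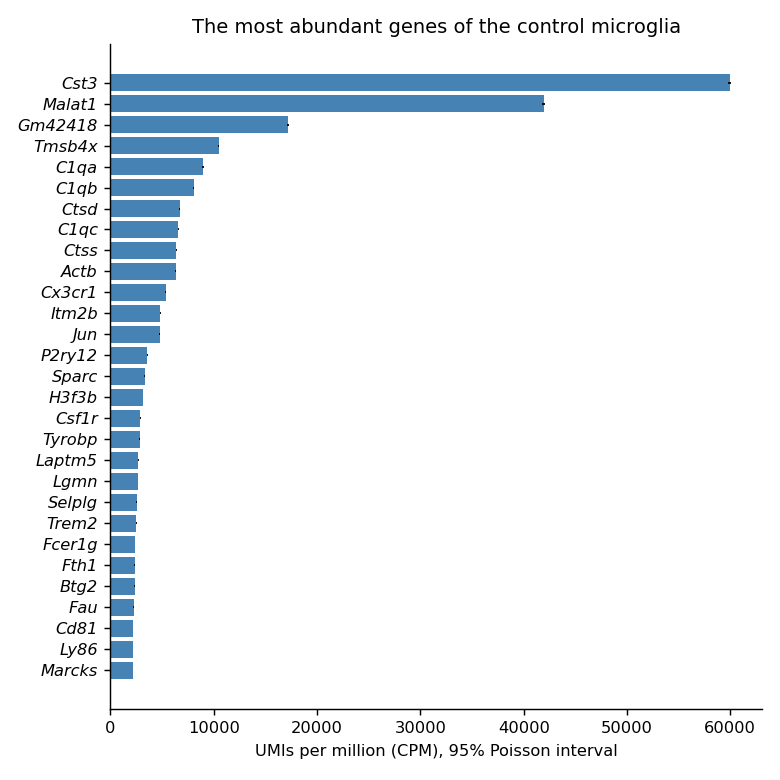
A total of 29 of the 30 most abundant genes outside mitochondrially encoded and ribosomal protein genes (vertical axis) by CPM over all kept control cells (horizontal axis), with bars for the level and error bars for the 95% Poisson interval. Cst3 at 59947 and Malat1 at 41919 stand far above the rest, and from Tmsb4x at 10474 down the levels decline gradually.

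Receptor transcripts took 4.34% of UMIs. Of 142 receptor and co-receptor genes with a row in the table, 86 (60.6%) reached 20 CPM, against 40.0% of all 16067 genes with a UMI. The receptor list was assembled from genes known in microglia and macrophages, so this share describes the list and is no test.

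Among 13 purinergic receptors, which sense extracellular ATP, ADP, UDP and adenosine, 6 reached 20 CPM. P2ry12, which steers processes toward ADP, had 3577 CPM (3538 to 3616) and its close relative P2ry13 had 703. P2ry6, a UDP receptor linked to phagocytosis, followed at 316 CPM, then the adenosine receptor Adora3 at 105 and the ATP-gated channels P2rx7 and P2rx4 at 102 and 93.2, whose intervals overlap. P2ry1, P2ry14, Adora2a and Adora2b had 0 UMIs.

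Of 16 chemoattractant receptors 7 reached 20 CPM. Cx3cr1 at 5336 CPM (5288 to 5383) exceeded all other members added together within a family sum of 6344. The complement anaphylatoxin receptors stood well below it, C3ar1 at 180, C5ar2 at 82.3 and C5ar1 at 67.1. The monocyte recruitment receptor Ccr2 was at 7.89 CPM, and Cxcr4, Fpr1 and Fpr2 were at 0.

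The growth factor and cytokine receptors were the most evenly filled family, with 23 of 25 at 20 CPM or more. Csf1r led at 2893 CPM (2859 to 2929). Both TGF-beta receptor chains, which relay the signal that maintains microglial identity, were present, Tgfbr1 at 916 CPM and Tgfbr2 at 356. Ifngr1 had 882 CPM and its partner Ifngr2 had 258, Il6ra had 337 and its signalling chain Il6st had 245, and the IL-10 receptor chains Il10ra and Il10rb had 169 and 164. The type I interferon receptor chains differed more, Ifnar2 at 308 and Ifnar1 at 68.6 CPM. Il1r1, the signalling receptor for interleukin 1, was at 0.877 CPM and its co-receptor Il1rap at 6.03. Csf2rb (67.9) and Csf2rb2 (20.9) are near-identical copies, and how their UMIs were divided is uncertain.

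Fc receptors bind antibody. The shared gamma chain Fcer1g had 2381 CPM, the activating receptors Fcgr3 and Fcgr1 had 1068 and 409, the inhibitory Fcgr2b had 237 and Fcgr4 had 12.6. Of 17 pattern recognition genes with a row, 11 reached 20 CPM. The accessory protein Ly86, partner of Cd180, had 2197 CPM while Cd180 itself had 203. The endotoxin co-receptor Cd14 had 336 CPM against 43.7 for Tlr4 and 60.6 for Ly96, the other parts of that complex. Tlr7 (104), Tlr3 (97.7) and Tlr13 (80.2), which read nucleic acids in endosomes, exceeded Tlr2 at 60.7, and Tlr9 was at 5.48 and Tlr8 at 0. Clec7a was not analysed here.

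Phagocytic receptors were led by Trem2, which binds lipids and lipoproteins, at 2511 CPM (2478 to 2543), and its adaptor Tyrobp at 2817 (2783 to 2852). Mertk, which recognises dying cells, had 427 CPM, whereas its relatives Axl and Tyro3 were at 1.21 and 0. Lrp1 had 367 CPM, and the scavenger receptors Cd36, Marco and Msr1 were at 0.110, 0.110 and 2.85. Among 16 listed inhibitory and related immune receptors, Siglech (2019), Lair1 (858), Sirpa (620) and Cd33 (371) were highest. Cd200r1, the receptor for neuronal Cd200, was at 26.5 CPM. The integrins most abundant were Itgb5 at 772 and Itgam, the CD11b chain used in the sort, at 680, with Itgb2, its partner, at 221. Itgax (CD11c) was at 1.75 CPM. Other G protein-coupled receptors were led by Gpr34, a lysophosphatidylserine receptor, at 2025 CPM, ahead of Adgrg1 at 307 and Gpr183 at 302.

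Lysosomal genes took 5.07% of UMIs, and 93 of 107 (86.9%) reached 20 CPM, beside the same 40.0% of all genes. The proteases carried the largest sum. Together 15 cathepsins and related proteases had 21974 CPM (21878 to 22070), of which Ctsd, the main aspartic protease, gave 6688 and Ctss, a cysteine protease that stays active at neutral pH, gave 6350. Lgmn, which processes other cathepsins, had 2661, Ctsz 1688, Ctsb 1376 and Ctsl 1104, and levels ran down through Ctsh at 676 and Ctsa at 549 to Ctso at 81.9. Ctsk, the protease of osteoclasts, was at 0.110 CPM and Ctse at 0.

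Among glycosidases and sulfatases, 19 of 22 reached 20 CPM, with a sum of 11543 CPM. Man2b1, an alpha-mannosidase, had 549 CPM. Enzymes whose loss causes storage disease were often low, Gaa at 64.5, Glb1 at 39.7 and Gla at 3.51. All 12 genes of lysosomal lipid handling reached 20 CPM, led by Psap, the precursor of the saposins that present lipids to hydrolases, at 1306. Npc2 had 641 CPM and Npc1, its partner in cholesterol export, 126. Of the nucleases, Rnaset2a (516) and Rnaset2b (415) are near-identical copies whose division of UMIs is uncertain.

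In the lysosomal membrane Laptm5 had 2693 CPM, Lamp1 941, Cd68 705 and Lamp2 490. The proton pump that acidifies the lysosome was represented by 16 of 19 subunit genes at 20 CPM or more, from Atp6v0b at 847 and Atp6v0c at 557 to Atp6v1h at 47.1. The osteoclast subunit Atp6v0d2 had 0 UMIs and the brain forms Atp6v1g2 and Atp6v0e2 had 2.63 and 0.438 CPM. Among the regulators of lysosomal genes, the transcription factors Tfe3, Mitf and Tfeb had 167, 35.6 and 27.8 CPM, and the Ragulator subunit Lamtor4 led the list at 251.

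**Figure D3:**
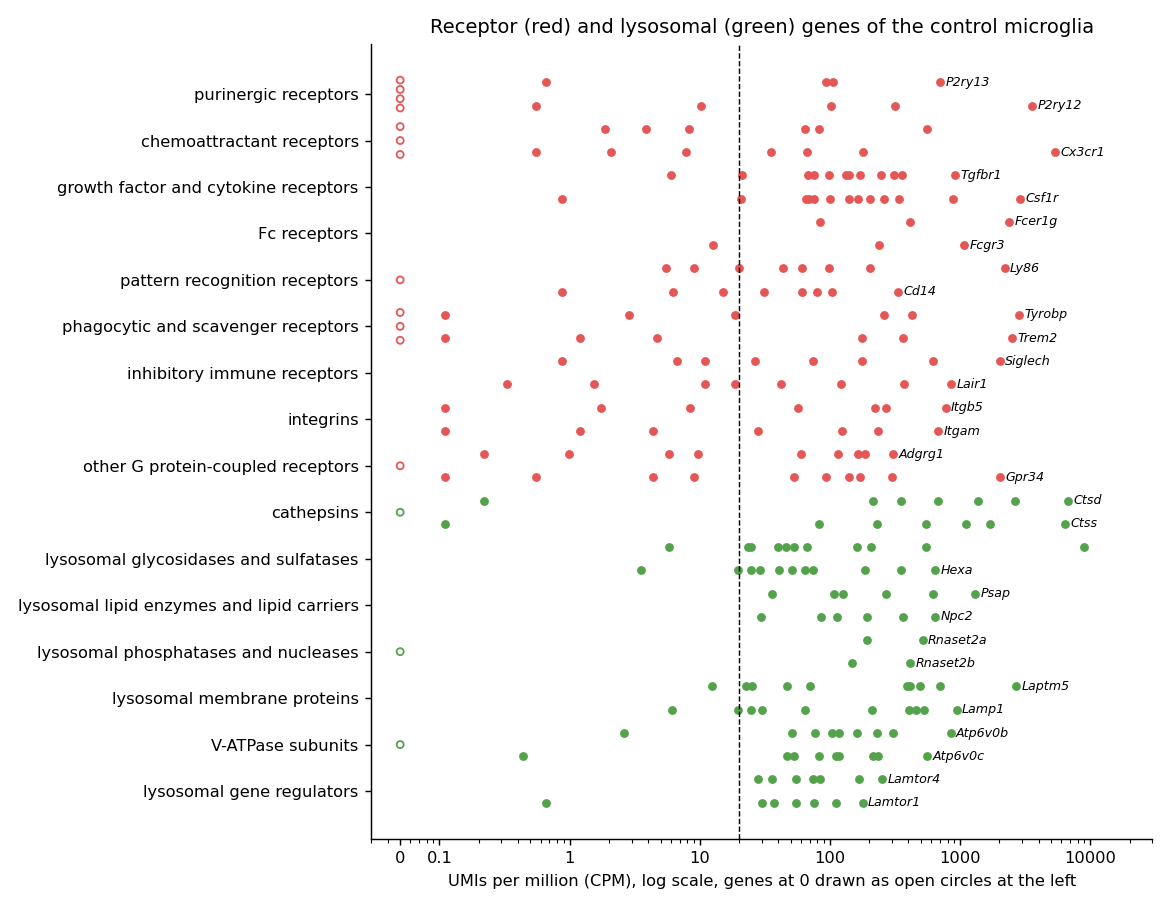
Levels of receptor genes (red) and lysosomal genes (green) in CPM on a log scale (horizontal axis), 1 row of points per family (vertical axis), with a dashed line at 20 and open circles for genes at 0. Cx3cr1, P2ry12, Csf1r, Tyrobp and Trem2 lead the receptor families and Ctsd and Ctss the cathepsins, and within most families levels span orders of magnitude.

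Variation between cells was measured with an index of dispersion, the variance of a gene's UMIs around the value expected from each cell's total, divided by the Poisson variance. It is 1 when cells differ by counting noise alone. Of 4669 genes with at least 0.05 UMIs per cell, 46 (0.985%) had an index of 1.5 or more, the median was 1.04 and the 5th to 95th percentile ran from 0.988 to 1.15. Just inside that limit were Chka (1.50), Hist1h1d (1.51) and Cx3cr1 (1.51), and just outside it mt-Nd4 (1.48), Fcrls (1.48) and Neat1 (1.47). The index grows with depth, since a given biological spread stands out more when more molecules are counted: among the 185 genes with at least 1 UMI per cell 23 passed and the median was 1.16.

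Most receptor and lysosomal genes, like most genes measured, had an index under the limit at this depth. The limit marks a size of variation, and whether smaller indices differ from counting noise was not tested. The median index of both lists lay slightly above the Poisson value, and a modest spread in a sparsely counted gene would not reach the limit. Of 80 receptor genes that could be measured 1 passed, Cx3cr1, with a median index of 1.07, and of 82 lysosomal genes 2 passed, Ctsd (1.89) and Ctss (1.60), with a median of 1.04. Beside the 0.985% of all measured genes, so few members past the limit describe nothing particular to either list. In thinned cells Cx3cr1 had a median of 5 UMIs with a 5th to 95th percentile of 2 to 10, where Poisson counts of the same mean give 2 to 9, and Csf1r (index 1.14) had 0 to 6 against 0 to 6. Ctsd spanned 2 to 13 UMIs against 3 to 11 under Poisson. P2ry12 had an index of 1.40 and was at 0 in 4.31% of thinned cells, where 2.74% is the Poisson share. The genes nearest to Poisson among those with at least 1 UMI per cell included Bin1 (1.02), Itgb5 (1.03), Atp6v0b (1.04) and Lamp1 (1.05).

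Sums over a family can pass the limit where single genes do not, because members that move together add up. The summed cathepsins had an index of 2.09, the complement genes 2.45, the glycosidases 1.34 and the V-ATPase subunits 1.10, with the receptor families between 1.11 for integrins and 1.50 for chemoattractant receptors. None of 81 ribosomal protein genes passed alone (median 1.11), while their sum had an index of 7.06 and took 4.08 to 9.61% of a cell's UMIs from the 5th to the 95th percentile, where Poisson counts give 5.49 to 7.78%. The summed mitochondrially encoded genes had an index of 4.59, with 2 of 12 measured members past the limit.

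**Figure D4:**
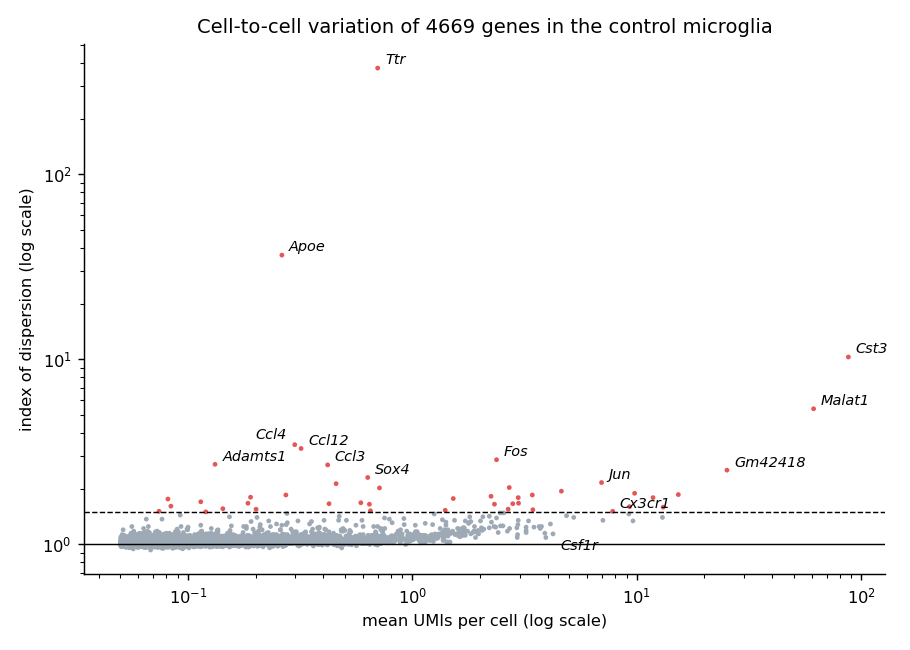
Index of dispersion (vertical axis, log scale) against mean UMIs per cell (horizontal axis, log scale) for 4669 genes of the control microglia, with a solid line at 1, the Poisson value, and a dashed line at 1.5. Genes at or past 1.5 are red: 46 genes, with Ttr at 375 and Apoe at 36.6 far above the rest and Cst3 (10.3) and Malat1 (5.41) next.

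A few cells set the highest values. Ttr, which encodes the transport protein transthyretin, had an index of 375 at 479 CPM, but it was found in only 95 cells. In 14 cells with at least 10 Ttr UMIs lay 98.0% of its molecules, and 7 of these had none of the 4 microglial markers. The cell with most had 949 Ttr UMIs out of 2525 with 4 of Folr1, another choroid plexus gene, and 13 of Cst3. Without cells holding at least 10 UMIs of Ttr or Cd74 (a removal chosen after seeing the data), 6228 cells remained, 43 genes passed, all of them among the 46, and a microglial marker was found in 100.0% of cells to the rounding used. Ttr was then at 9.79 CPM with an index of 1.55, and with at most 5% mitochondrial UMIs it was at 262 CPM.

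Apoe, a lipid carrier, had 180 CPM in these cells (171 to 188) and an index of 36.6, the second highest. It was detected in 466 cells (7.46%), and 25 cells with at least 10 UMIs held 49.5% of its molecules. The index of Apoe was 19.8 without the cells that had 3 or more markers of another type, and 80.7 in cells with at least 1000 detected genes. These cells differed from the Ttr-rich ones: 23 of 25 had a microglial marker, and Cx3cr1 was found in 23. The cell with most had 220 Apoe UMIs of 2194, beside 8 of Cx3cr1, 8 of Csf1r, 1 of Pf4 and 1 of Ms4a7, both of which are border macrophage genes.

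Transcripts of MHC class II, which presents antigen to T cells, were concentrated in 1 cell. That cell carried 145 of the 260 UMIs of Cd74 (55.8%), with 55 of H2-Aa, 54 of H2-Eb1 and 53 of H2-Ab1 in a total of 4227, and it also had 4 UMIs of P2ry12, 6 of Cx3cr1, 4 of Csf1r and 0 of Tmem119. Its dendritic cell markers Flt3 and Zbtb46 were at 0. The next highest Cd74 count in a cell was 5. The peptide loading genes H2-DMa (244 CPM) and H2-DMb1 (141 CPM) were spread over the population, with indices of 1.08 and 1.04.

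Cst3 and Malat1, the most abundant genes, also varied broadly and in opposite directions. Cst3 had an index of 10.3 and Malat1 of 5.41, which at their high counts corresponds to an excess squared coefficient of variation of 0.108 and 0.0708 (0 under Poisson). Covariation is given as a correlation of 2 quantities with counting noise removed, over 6243 cells of 1 library, as a description with no interval or p. Its points share each cell's total and depth. Across 93528 pairs of 433 genes with an index of at least 1.1 (a limit chosen after seeing the data), the median was -0.00228 and the 5th to 95th percentile -0.207 to 0.236. Cst3 and Malat1 stood at -0.342. Sums of genes have no such reference, since the percentiles are of single-gene pairs, and their correlations are given as values only. Summed ribosomal protein genes and Malat1 stood at -0.436, and Cst3 and the summed complement genes at 0.615. The summed cathepsins stood at 0.633, with the V-ATPase subunits at 0.490, with Cst3 at 0.486 and with the sum of 12 microglial markers at 0.0288. When the cells were put in 4 groups by depth, from a median of 1037 UMIs in the shallowest to 1845 in the deepest, Cst3 went from 54872 to 62107 CPM, Malat1 from 48500 to 38520 and Cx3cr1 from 6000 to 5017, so depth moved with these values and its part was not tested.

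Immediate early genes, which cells transcribe within minutes of a stimulus, were the largest group past the limit: 11 of 17 measured members passed, against 0.985% of all measured genes. Several of these members are abundant, and among all genes with at least 1 UMI per cell 23 of 185 passed. They took a median of 1.92% of a cell's UMIs, with a 5th to 95th percentile of 0.787 to 3.20%, where Poisson counts give 1.32 to 2.56%. The AP-1 subunits Jun (4763 CPM, index 2.16), Jund (2032, 1.67), Fos (1621, 2.87), Junb (1587, 1.65) and Fosb (403, 1.68) all passed. Fos was detected in 67.9% of cells and after thinning was at 0 in 38.7%, where 19.7% is the Poisson share, with up to 14 UMIs in a cell. The antiproliferative gene Btg2 (2342 CPM, 1.85), the zinc finger factor Egr1 (1533, 1.82), Klf2 (187, 1.85), Klf6 (440, 1.65), Klf4 (97.8, 1.56) and Ier3 (130, 1.80) were the other members past it. Not all members took part, since Rhob (1733 CPM) had an index of 1.26, Nr4a1 was at 2.41 CPM and Egr2 at 14.5.

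Most pairs of these genes had a positive but weak correlation. In 104 of 120 pairs of 16 members the corrected correlation was above 0, whereas more of all pairs lay below 0 than above it (median -0.00228). The group's median of 0.140 lay within the 5th to 95th percentile of all pairs, -0.207 to 0.236. The highest value was 0.555 for Ier5 and Zfp36, which encodes an mRNA-destabilising protein. By sign Ier3 was the main exception, below 0 in 9 of its 15 pairs, and Atf3 had no pair above 0.101. Jun and Jund reached 0.510, Jun and Egr1 0.379, Btg2 and Jun 0.369, and Fos and Fosb 0.349. The summed group stood at 0.304 with Malat1 and at -0.316 with the V-ATPase subunits. Jun was at 5295 CPM in the shallowest of the 4 depth groups and 4575 in the deepest, and Fos at 1662 and 1563.

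Promoter sequences of members that varied together are shown because cAMP and calcium signals are known to act on such genes through the CREB family, whose core motif is TGACG and whose full palindrome is TGACGTCA. Each sequence is the 250 bases before the RefSeq start of the gene (GRCm38.p6), written along the gene's strand, 5′ to 3′. Capitals mark TGACG or its reverse complement, which the palindrome contains on both strands.
Fos, chr12:85473640-85473889, plus strand: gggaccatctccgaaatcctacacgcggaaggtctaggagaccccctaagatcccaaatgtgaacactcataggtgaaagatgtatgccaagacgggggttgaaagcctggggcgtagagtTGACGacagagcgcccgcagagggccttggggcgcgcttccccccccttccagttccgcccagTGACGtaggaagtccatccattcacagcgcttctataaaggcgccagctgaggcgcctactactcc
Junb, chr8:84978749-84978998, minus strand: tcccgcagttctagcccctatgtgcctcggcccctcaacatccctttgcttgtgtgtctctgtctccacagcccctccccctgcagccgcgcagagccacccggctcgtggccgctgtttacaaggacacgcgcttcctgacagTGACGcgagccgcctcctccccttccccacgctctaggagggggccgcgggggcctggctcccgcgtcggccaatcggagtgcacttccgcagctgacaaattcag
Btg2, chr1:134079156-134079405, minus strand: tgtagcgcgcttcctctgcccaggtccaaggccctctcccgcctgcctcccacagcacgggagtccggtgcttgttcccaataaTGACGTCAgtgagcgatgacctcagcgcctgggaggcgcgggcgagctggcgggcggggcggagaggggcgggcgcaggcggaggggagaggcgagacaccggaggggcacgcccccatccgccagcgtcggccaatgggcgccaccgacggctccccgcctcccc
Dusp1, chr17:26508473-26508722, minus strand: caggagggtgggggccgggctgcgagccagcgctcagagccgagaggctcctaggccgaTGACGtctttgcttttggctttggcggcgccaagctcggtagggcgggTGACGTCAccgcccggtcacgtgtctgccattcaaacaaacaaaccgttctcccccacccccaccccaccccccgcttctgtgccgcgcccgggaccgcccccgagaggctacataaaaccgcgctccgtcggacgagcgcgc
Of 13 group members with a window, 7 held TGACG on either strand and 2, Btg2 and Dusp1, held TGACGTCA, and over all 32851 RefSeq windows of this length the shares were 17.8% and 1.55%. Jun, Jund, Ier3, Ier5, Zfp36 and Klf6 held neither in this window, and the CArG box, the site of serum response factor, was found in 1 of the 13, Zfp36, against 1.47% of all windows. The Jund window ends at chr8:70697738, upstream of the GENCODE start of Jund at 70698949, and does not reach the bases before that start. Egr1, Ier2 and Atf3 had no window. A match describes letters only.

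Chemokines, which attract other leukocytes, were sparse and uneven. Of 7 measured members 4 passed, beside 0.985% of all measured genes: Ccl4 (204 CPM, index 3.46), Ccl12 (218, 3.30), Ccl3 (287, 2.69) and Ccl2 (55.7, 1.76). Ccl3 was found in 21.0% of cells, Ccl12 in 20.4% and Ccl4 in 14.7%, with up to 14, 39 and 34 UMIs in a cell, and the 1% of cells with most Ccl4 held 25.4% of its molecules. In cells with at least 1000 detected genes the indices of Ccl4 and Ccl12 were 5.30 and 6.35. Ccl3 and Ccl4, which lie near each other at chr11:83647844-83649355 and chr11:83662584-83664683, were correlated at 0.461. In thinned cells 219 had both, where unrelated detection would give 114. Ccl12 went instead with the interferon-induced kinase Eif2ak2 (0.458). Ccl6 (160 CPM) and Ccl9 (86.8 CPM) did not pass, Cxcl10 was at 5.59 CPM and Cxcl2 at 0. Of the cytokines, Tnf was at 30.5 CPM, Il6 at 20.7, Il1a at 119 and Il1b at 2.41, while Tgfb1, a signal that microglia make for themselves, was at 334 CPM with an index of 1.03.

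MHC class I genes display peptides from inside the cell. Of 7 measured members 1 passed the limit, with a median index of 1.08, beside 0.985% of all measured genes. B2m, the shared light chain, had 1296 CPM and was found in 79.8% of cells, H2-D1 had 445 CPM and an index of 1.52, and H2-K1 had 336 CPM and an index of 1.22. Pairs were formed of these 3 members only. All 3 pairs were correlated, at 0.690 for B2m and H2-D1, 0.687 for B2m and H2-K1, and 0.825 for H2-D1 and H2-K1. The heavy chain genes are close copies, and how UMIs were divided between them is uncertain, which does not touch B2m. Their promoters are printed to show that resemblance, with capitals for the longest identical run of 47 bases in the 250 bases before each start.
H2-D1, chr17:35262844-35263093, plus strand: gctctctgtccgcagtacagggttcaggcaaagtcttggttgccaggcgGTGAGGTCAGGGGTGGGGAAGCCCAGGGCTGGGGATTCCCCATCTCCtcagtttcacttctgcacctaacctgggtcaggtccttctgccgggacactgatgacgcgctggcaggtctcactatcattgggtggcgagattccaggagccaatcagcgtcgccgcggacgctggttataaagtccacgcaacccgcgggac
H2-K1, chr17:34000348-34000597, minus strand: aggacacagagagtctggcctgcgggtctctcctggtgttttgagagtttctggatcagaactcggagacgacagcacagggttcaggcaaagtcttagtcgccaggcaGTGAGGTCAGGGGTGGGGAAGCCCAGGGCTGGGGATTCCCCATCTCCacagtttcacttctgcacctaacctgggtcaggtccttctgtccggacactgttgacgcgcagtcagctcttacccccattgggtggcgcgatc

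The interferon-induced gene Bst2, which tethers budding virus, had 149 CPM and stood at a median of 0.318 with the 3 MHC class I genes and at a median of 0.0735 with 6 chemokines, from -0.0957 to 0.383. Of the 16 interferon response genes listed, Bst2 among them, 4 reached 20 CPM, beside 40.0% of all genes with a UMI. Isg15 was at 11.6 CPM, Ifit3 at 10.6 and Irf7 at 4.06, and the sum of the list, which includes Bst2, had an index of 2.80. The windows of B2m and Bst2 are shown because both hold the interferon-stimulated response element in the form GAAA, any 2 bases, GAAA on either strand. Capitals mark it, and in Bst2 a pair of matches overlap.
B2m, chr2:122147437-122147686, plus strand: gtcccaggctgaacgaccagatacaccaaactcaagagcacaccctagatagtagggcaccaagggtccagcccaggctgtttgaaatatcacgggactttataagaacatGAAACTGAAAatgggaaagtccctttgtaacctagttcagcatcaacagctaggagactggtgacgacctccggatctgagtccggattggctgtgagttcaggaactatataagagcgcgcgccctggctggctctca
Bst2, chr8:71537473-71537722, minus strand: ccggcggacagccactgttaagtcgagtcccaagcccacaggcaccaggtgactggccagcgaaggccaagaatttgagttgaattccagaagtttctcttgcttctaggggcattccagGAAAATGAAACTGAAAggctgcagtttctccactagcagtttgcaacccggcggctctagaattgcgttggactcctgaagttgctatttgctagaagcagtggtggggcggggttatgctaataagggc
This form was found in 2.98% of all windows. In the windows printed for H2-D1 and H2-K1 these letters do not occur, nor do they in those of Eif2ak2 and Ccl12. Other forms of an interferon response element were not searched for, so these windows may hold one.

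**Figure D5:**
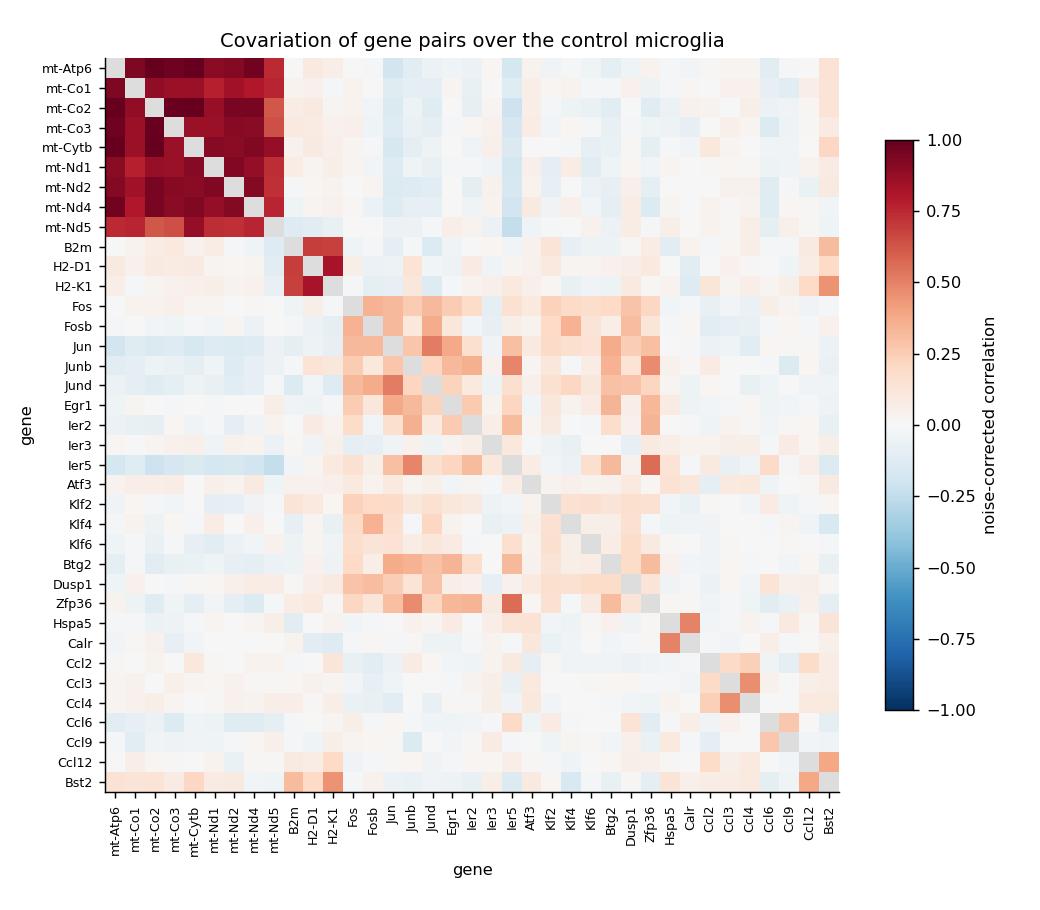
Noise-corrected correlation of gene pairs over the control microglia, with genes on both axes in the order of their groups and color from blue (-1) to red (1). Mitochondrially encoded genes form 1 block (median 0.894), MHC class I genes a second (0.690), and immediate early genes a broader and weaker one (0.140).

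The endoplasmic reticulum chaperones Hspa5 (932 CPM, index 1.36) and Calr (718, 1.17) were correlated at 0.493, and the 17 listed chaperones of that compartment had a sum index of 1.70. Of the cytosolic heat shock genes, the constitutive Hsp90ab1 and Hspa8 had 1248 and 710 CPM. Hsp90aa1, an inducible form, had 289, the co-chaperones Dnaja1 and Dnajb1 had 153 and 55.0, and the inducible Hspa1a and Hspa1b had 4.28 and 0.767.

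Transcription factors of the microglial lineage were all detected, with 16 of 16 at 20 CPM or more, beside 40.0% of all genes with a UMI. Of 15 measured members 1 had an index past the limit, beside 0.985% of all measured genes. Mef2c had 1275 CPM, Mef2a 1100, Maf 965, Irf8 558, Spi1 481 and Sall1, which marks microglia among macrophages, 346.

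Of 17 genes of the disease-associated microglia program with a row, 6 reached 20 CPM, beside 40.0% of all genes with a UMI: Tyrobp, Trem2, Cd9 (1220 CPM), Cd63 (408), Lyz2 (243) and Apoe. The genes that define the later stage of that program were scarce. Gpnmb was at 0, which allows up to 0.404 CPM, Igf1 at 0.110, Spp1 at 0.219, Lgals3 at 0.658 and Itgax at 1.75. Lpl and Cst7 were at 5.26 and 6.80 CPM. Apart from Apoe, the member with the highest index was Cd63 at 1.35.

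Further genes past the limit belonged to none of the lists. Adamts1, a secreted protease of the extracellular matrix, had 90.7 CPM and an index of 2.71, with 409 cells positive and 35.6% of its molecules in the top 1% of cells. The transcription factor Sox4 (433 CPM, 2.30), Rgs1, which damps G protein signalling (313 CPM, 2.13), Tmx4 (488 CPM, 2.02), the histone gene H3f3b (3152 CPM, 1.94), Tmsb4x (1.86), Kctd12 (2023 CPM, 1.79), the mRNA decay factor Zfp36l1 (1.77) and the differentiation inhibitor Id2 (78.0 CPM, 1.70) followed. Among their nearest partners were Rgs2 for Rgs1 (0.197) and Fosb for Tmx4 (0.291). A nearest partner is picked as the highest of a gene's correlations, so the percentiles of all pairs are no reference for it.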

How the data were processed

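The deposited UMI counts, one value for a gene in a barcode, were written by Cell Ranger 6.1.0 per the file headers. Seurat and mm10 are named in the submitters' processing notes. The deposited counts were not normalized. From them, levels were computed as counts per 1000000 UMIs (CPM) over kept cells, with exact intervals at 95%. The index of dispersion and the noise-corrected correlation were computed from residuals around each cell's total for genes with at least 0.05 UMIs per cell, and the procedure was tested on simulated data. Thinning drew 1000 UMIs per cell. Python 3.11.15, NumPy 2.4.6, SciPy 1.17.1, pandas 2.3.3 and Matplotlib 3.10.9 were used. No doublet caller was run, so doublets may remain. The rule for named genes took the 30 most abundant outside mitochondrial and ribosomal genes, the 25 with the highest index, the 15 with the highest excess variation, the 10 with the lowest index among abundant genes, the 4 markers, up to 4 members of each list by level and by index, and the closest partner of the 10 most variable genes. Other list members, and partners of other genes, were named after their values were seen. The members and lists were chosen with earlier results of these data known. Gene positions are from GENCODE M21 on GRCm38. The Atg7-deleted cells were used only to count cells and shared barcodes, and the bulk libraries were not used here. A few list members are not reported here.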

Additional observations from a re-analysis of the deposited data

How the results depend on the processing

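Requiring at least 1000 detected genes left 1349 cells, a lysosomal share of 5.02%, 71 genes with an index of 1.5 or more (44 of them among the 46), 491 cells with Y-linked UMIs and 1 cell with 3 markers of another type. There 11 of 29 correlations moved by over 1.5 times (ratios to the value reported from 0.498 to 3.65), as did 4 of 67 indices (0.663 to 2.20) and 4 of 34 indices of list sums, of which MHC class II rose most, to 35.2 from 9.37. Requiring at least 200 genes gave a microglial marker in 99.1% of cells and a lysosomal share of 5.05%, and a limit of 5% mitochondrial UMIs gave 99.9% for the marker. Thinning each cell to 1000 UMIs, which lowers the index by construction, left 26 genes past 1.5, all among the 46, moved 6 of 29 correlations by over 1.5 times, and turned that of Ccl2 with Rnase6 from 0.254 to -0.0225. The sum of MHC class II genes had an index of 1.13 without the 2% of cells with the most UMIs. Totals without mitochondrial and ribosomal protein genes gave a lysosomal share of 5.51%. Without cells holding at least 10 UMIs of Ttr or Cd74, a choice made after seeing the data, a marker was found in 100.0%, 2 cells had markers of another type, and Ttr with Bsg went from 0.758 to -0.0602, as the cells that carried Ttr were gone. Without the cells with 3 or more markers of another type, Apoe was the 1 index of 67 that moved by over 1.5 times. A lower limit on the index gave 110 genes and a limit of 2 gave 15. There were 265 genes at 500 CPM or more, and 185 cells had 2 markers of another type. In these settings 29 or 30 of the 30 most abundant genes were shared. No paired analysis was possible because there is 1 library and no test. At a median of 1392 UMIs per cell, genes under 0.05 UMIs per cell could not be measured for variation.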

Other observations

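Ighm, the constant region of an antibody heavy chain, was detected in 2018 control cells (32.3%, or 23.8% after thinning to 1000 UMIs). It stood at 287 CPM (277 to 299), with at most 5 UMIs in a cell and an index of dispersion of 1.11. The B cell receptor component Cd79b was at 40.0 CPM, while Cd79a and Ms4a1 were at 0 in the same cells. The myelin genes Mag and Mbp were at 38.6 and 32.7 CPM and the platelet and endothelial adhesion gene Pecam1 at 55.4, all spread thinly with indices between 0.987 and 1.07.

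Of 23 listed autophagy genes 17 reached 20 CPM in these Atg7-intact cells, beside 40.0% of all genes with a UMI. The summed list had 1472 CPM and an index of 1.04, close to counting noise, and was led by Gabarap at 377. Map1lc3b, an LC3 gene, was at 139 CPM. Atg7 itself, the floxed gene, had 144 UMIs in 138 cells (15.8 CPM, 13.3 to 18.6).

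Dividing cells were rare. The proliferation genes Top2a and Mki67 had UMIs in 11 and 18 of 6243 cells, with at most 12 and 7 in a cell, whereas Pcna, which also serves DNA repair, was at 83.2 CPM. The labels do not give the sex of the pooled mice. UMIs of Y-linked genes were found in 1664 cells (26.7%), Xist in 1 cell, and both in 0 cells.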
